A study of Mus musculus with 12 samples.

Results

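Classical cadherins are calcium-dependent adhesion molecules, and 10 cadherin genes were followed here in the striatum of mouse embryos at embryonic day 18.5. The genes were Cdh2, Cdh4, Cdh6, Cdh7, Cdh8, Cdh9, Cdh10, Cdh11, Cdh12 and Cdh13, taken by name from a table of 25428 probe sets with 1 probe set per gene, and all 10 were present. They were proposed with results of the comparison below in view, so their changes are given as a description of this data set and not as independent evidence about the family. Each of 12 embryos gave 1 array, with 6 wild-type (WT) and 6 Nestin-Cre (Foxp1-/-) animals, called cKO here. All were on the C57BL/6J background, and no agent was applied. Per the protocols in the labels, striatum was dissected from the left and right hemisphere. The labels do not say that the WT animals carried Cre, so the effect of Cre and that of Foxp1 loss cannot be told apart. The Nestin sequences that drive Cre are active in neural progenitors, from which neurons and glia arise, while endothelial cells and microglia come from other lineages. Cdh13 is usually counted as an atypical cadherin, so the label classical is loose for it.

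Cadherins hold neighbouring cells together by binding through their outermost extracellular domains, mostly to the same or a closely related cadherin on the other cell. Inside the cell, classical cadherins bind p120-catenin and beta-catenin, and alpha-catenin with vinculin connects the complex to actin. In the embryonic forebrain, different cadherins mark different neuron groups and the border between cortex and striatum, and they take part in cell sorting, axon targeting and synapse formation.

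The values are RMA expression on the log2 scale, where the median of all values was 5.71. RMA levels of different genes are not on a common scale per transcript, so levels are compared here only between arrays for the same gene. All 10 cadherins had a mean above that median, which is relevant because changes near the lower end of an RMA scale are compressed. Cdh7 and Cdh9 lay little above it, with means of 6.01 and 6.03 over all arrays, so compression is not excluded for them. Correlations between arrays ran from 0.992 to 0.998. The mean correlation of an array with its own group was 0.9945 to 0.9967 in WT and 0.9972 to 0.9976 in cKO. Foxp1 lay at 10.89 to 11.39 in the WT arrays, against 10.14 to 10.36 in the cKO arrays, a change of -0.91 ± 0.07 (SE; limma adjusted p = 0.000170), and no cKO array reached a WT array. Foxp1 thus still read well above the median of all values in cKO, and the labels do not say whether its probes lie inside the deleted part. The arrays mixed sexes: Y-linked genes were high in 4 WT and 3 cKO arrays and low in the others, WT replicates 3 and 4 and cKO replicates 2, 3 and 5. Of 12 listed markers of striatal projection neurons 10 were measured and none had a mean below the median, with summed log2 levels of 90.9 to 93.9 in WT and 89.9 to 91.9 in cKO. Pde10a, a phosphodiesterase of these neurons, was the 1 member that passed, at -0.59 ± 0.09 (limma adjusted p = 0.00869). At an unadjusted p under 0.05 in limma, 4 of the 10 were lower and 2 higher. Lower besides Pde10a were Tac1, Ppp1r1b and Ebf1. Tac1 was at -0.55 ± 0.12 (limma adjusted p = 0.0653). Ppp1r1b was at -0.48 ± 0.11 (limma adjusted p = 0.0718) and Ebf1 at -0.22 ± 0.07 (limma adjusted p = 0.243). The higher ones were Penk and Foxp2. Penk, a neuropeptide precursor, was at 0.38 ± 0.08 (limma adjusted p = 0.0501), and Foxp2 at 0.11 ± 0.04 (limma adjusted p = 0.372). Of 10 listed cortical glutamatergic markers 9 were measured, with Slc17a7 and Emx1 below the median level. The sum over these 9 was 53.9 to 57.4 in WT arrays, against 54.2 to 59.3 in cKO arrays. All 9 had a positive difference, and 0 passed in limma, with 2 at an unadjusted p under 0.05, Neurod6 at 0.51 ± 0.21 (limma adjusted p = 0.408) and Neurod2 at 0.41 ± 0.18 (limma adjusted p = 0.410). In 7 lists of other cell types, 40 measured genes gave 0 calls in limma, and 9 of them lay below the median level. At an unadjusted p under 0.05 there were 5, of which 4 were higher and 1 lower. Over all probe sets 10.7% reached that p and 0.728% were called, which applies to the preceding lists too. The lower gene was Sox9, of the radial glia and astrocyte list, at -0.36 ± 0.10 (limma adjusted p = 0.141). In that list 6 of 8 genes were positive, and Pax6 was higher, at 0.19 ± 0.07 (limma adjusted p = 0.350). Higher too were Pdgfrb, at 0.13 ± 0.05 (limma adjusted p = 0.377), and Tek, at 0.10 ± 0.04 (limma adjusted p = 0.373), of the endothelial and pericyte list, and Erbb4 of the interneuron list. Erbb4 had the smallest p of the 4 higher genes, at 0.31 ± 0.07 (limma adjusted p = 0.0603). Every cKO array lay above every WT array for Erbb4. RNA came from whole tissue, so fewer cells of a type and less RNA per cell cannot be told apart in any result below.

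The question was how each cadherin differed between genotypes. Cdh8 and Cdh13 were lower in cKO and Cdh4 was higher, each past a limma adjusted p of 0.05 over all 25428 probe sets. The other 7 did not pass. The 3 calls among 10 stand beside 0.728% called among all probe sets, and 1.34% among the 12713 probe sets above the median level. Split by direction, 2 of 10 were called lower, against 0.429% of all probe sets, and 1 of 10 higher, against 0.299%. For 4 cadherins the genotypes shared no part of their ranges, with all cKO arrays below WT for Cdh6, Cdh8 and Cdh13 and above WT for Cdh4; such separation was found for 1.38% of all probe sets, 0.822% with cKO below and 0.562% with cKO above. At an unadjusted p under 0.05 there were 6 of 10, 4 lower and 2 higher, against 10.7% of all probe sets. No inference is drawn from these counts, since the genes were chosen with this comparison known. The median change of the 10 was -0.029, with 5 below and 5 above 0, beside -0.00077 over all probe sets.

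**Figure D1:**
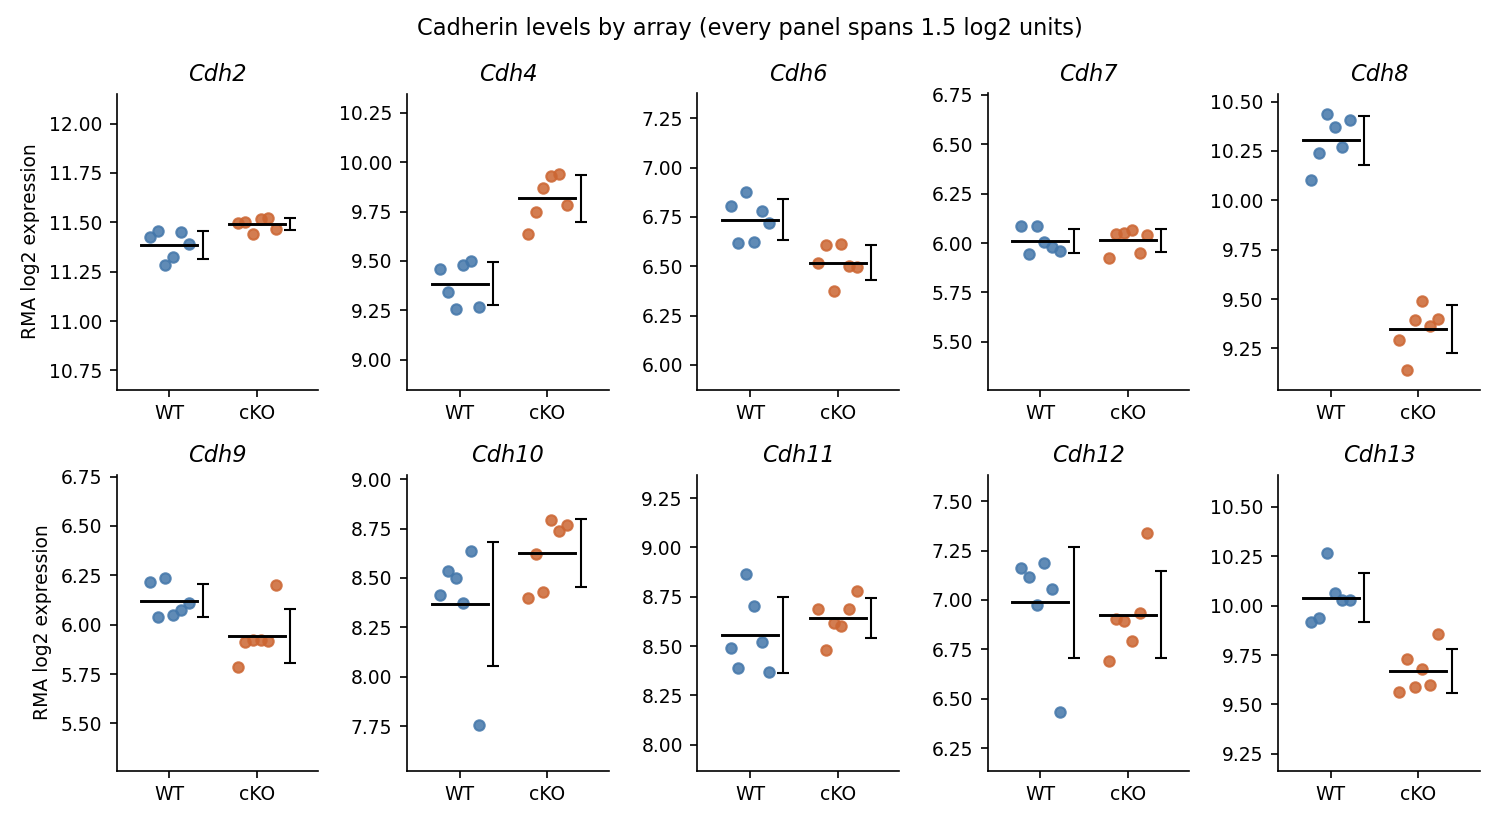
RMA log2 expression of the 10 cadherins in each of 12 arrays, 6 WT in blue and 6 cKO in orange. Horizontal lines are group means, bars are the SD, and every panel spans 1.5 log2 units. Cdh8 shows separated groups, with all cKO arrays at or below 9.49 and all WT arrays at or above 10.10, while Cdh10 and Cdh12 each have 1 low WT array.

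Cdh2 and Cdh4 are type I cadherins. Cdh4 encodes R-cadherin, known from retina and from the border between embryonic cortex and striatum. Its log2 level ran from 9.26 to 9.498 in WT with a median of 9.40, and from 9.64 to 9.94 in cKO with a median of 9.83. Every cKO array lay above every WT array, with a gap of 0.137 between the nearest arrays of the groups. The means were 9.38 ± 0.11 (SD, n = 6) and 9.82 ± 0.12 (SD, n = 6). The change was 0.43 ± 0.06 (SE), or 1.35-fold higher in cKO, with a 95% interval of 0.30 to 0.57 and a limma adjusted p of 0.00793. With the array level of the projection neuron list as a covariate, a list that holds genes which themselves differ between the genotypes, Cdh4 was at 0.38 ± 0.08 (limma adjusted p = 0.140).

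Cdh2 encodes N-cadherin, the main cadherin of the neuroepithelium and of many synapses. Its level in WT ran from 11.28 to 11.46 with a median of 11.41, and in cKO from 11.44 to 11.52 with a median of 11.50. The groups overlapped, and the difference of 0.10 ± 0.03 (SE) missed the threshold (limma adjusted p = 0.194). The 95% interval of that difference was 0.038 to 0.171 on the log2 scale. The WT arrays were spread more widely than the cKO arrays, with an SD of 0.071 against 0.032. The WT arrays also had the lower correlations with their own group, but the ratio of the WT to the cKO SD differed between the cadherins. It was 2.20 for Cdh2, the largest of the 10, 1.92 for Cdh11 and 1.82 for Cdh10. For Cdh4 it was 0.92 and for Cdh9 0.62, and the others lay between 1.05 and 1.28.

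Cdh8 and Cdh11 are type II cadherins that bind one another and Cdh24, so the 3 form a group of shared binding preference. Cdh8 is known from striatal and prefrontal neurons and from synapses between cortex and striatum. Its level ran from 10.10 to 10.44 in WT with a median of 10.32, and from 9.14 to 9.49 in cKO with a median of 9.38. The nearest arrays of the groups were 0.611 log2 units apart. The means were 10.30 ± 0.12 (SD, n = 6) and 9.35 ± 0.12 (SD, n = 6). Cdh8 fell by 0.96 on the log2 scale (SE 0.07), or 1.94-fold, with a 95% interval of -1.10 to -0.81 and a limma adjusted p of 0.000106. It ranked 2 of 25428 by p and 7 by the size of the change. The lowest WT array was replicate 1, and the lowest cKO array was replicate 2, which also had the lowest projection neuron list means of their groups.

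Cdh11, known from mesenchyme and from developing brain, ran from 8.37 to 8.87 in WT with a median of 8.50, and from 8.48 to 8.78 in cKO with a median of 8.65. The groups overlapped throughout, and the difference was 0.09 ± 0.08 (SE; limma adjusted p = 0.767), with a 95% interval of -0.095 to 0.268. Without WT replicate 3, the highest array, it was 0.15 ± 0.07 (limma adjusted p = 0.422). Cdh24, also of that binding group, had means of 6.81 in both WT and cKO and a 95% interval of -0.106 to 0.107 around a difference of 0.00050 (limma adjusted p = 0.999).

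The promoter of Cdh8 is shown because Cdh8 had the largest change of the 10 in animals labelled as knockouts of a forkhead factor, and that of Cdh12 because it was the member with a forkhead word in its window. Foxp1 is a forkhead protein, a class that binds DNA around the core TGTTTAC. The search covered 4 words on both strands of windows from 250 bases before to 50 bases after the start site, in a RefSeq promoter table of GRCm38.p6. These were TGTTTAC, held by 3.65% of all promoters in the table, TGTTTAT, held by 4.60%, TATTTAC, held by 3.04%, and TATTTAT, held by 5.60%. Windows were found for 6 of 10 cadherins, Cdh6, Cdh7 (3 windows), Cdh8, Cdh9, Cdh10 and Cdh12. The first 250 bases of 2 windows are printed 5′ to 3′ on the strand of the gene, with a matched word in capitals. Cdh8 lies at chr8:99416472-99416721 on the minus strand and Cdh12 at chr15:21111202-21111451 on the plus strand.
Cdh8: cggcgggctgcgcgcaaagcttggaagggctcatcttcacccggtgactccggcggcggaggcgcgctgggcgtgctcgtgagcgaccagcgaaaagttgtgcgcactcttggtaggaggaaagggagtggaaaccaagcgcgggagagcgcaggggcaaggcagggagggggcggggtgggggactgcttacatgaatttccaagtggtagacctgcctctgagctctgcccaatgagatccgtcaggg
Cdh12: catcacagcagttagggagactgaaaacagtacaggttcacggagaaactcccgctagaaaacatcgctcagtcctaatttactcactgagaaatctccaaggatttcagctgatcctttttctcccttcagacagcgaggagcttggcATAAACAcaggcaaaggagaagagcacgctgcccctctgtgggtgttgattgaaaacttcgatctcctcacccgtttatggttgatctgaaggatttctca
The Cdh8 window held 0 of these words and the Cdh12 window held 1, TGTTTAT read on the opposite strand and starting 101 bases before the start site. None was in the windows of Cdh6, Cdh7, Cdh9 or Cdh10. Of 32851 promoters of the same length, 15.0% held at least 1 of the 4 words. A missing word says only that these letters are not in this window. The Cdh8 window was rich in CpG, with 21 CpG pairs and 62.3% G or C, against medians of 7 and 52.7% over all promoters. The Cdh12 window had 9 CpG pairs and 46.7% G or C.

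Cdh6, Cdh9 and Cdh10 form another type II group of shared binding preference and take part in hippocampal synapses. Cdh6, which marks the embryonic striatal side of the border with the cortex, ran from 6.62 to 6.88 in WT with a median of 6.75. In cKO it ran from 6.37 to 6.62 with a median of 6.51. The groups did not overlap, but they nearly touched, with the lowest WT array at 6.617 and the highest cKO array at 6.615. The difference of -0.22 ± 0.05 (SE; 95% interval -0.331 to -0.104) missed the threshold in limma (adjusted p = 0.0987). It passed when probe sets below the median level were left out of the test (limma adjusted p = 0.0472). Fewer p-values are adjusted there, and the SE is estimated again. Cdh6 passed in this 1 of 23 refits, and the limma adjusted p reached 0.341 in the others.

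Cdh9 ran from 6.04 to 6.23 in WT with a median of 6.09, and from 5.79 to 6.20 in cKO with a median of 5.92. In 5 of 6 cKO arrays it lay below every WT array, and cKO replicate 6 lay inside the WT range. The difference was -0.18 ± 0.06 (SE; limma adjusted p = 0.289). Without cKO replicate 6 it was -0.23 ± 0.04 and passed (limma adjusted p = 0.0464). Of 23 refits this was the 1 in which Cdh9 passed, and the limma adjusted p reached 0.640 in the others.

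Cdh10 ran from 7.76 to 8.63 in WT with a median of 8.46, and from 8.40 to 8.79 in cKO with a median of 8.68. The low value of 7.76 was in WT replicate 6, and the other 5 WT arrays were at or above 8.37, inside or near the cKO range. The difference was 0.26 ± 0.14 (SE; limma adjusted p = 0.541), and 0.13 ± 0.08 without WT replicate 6 (limma adjusted p = 0.683). The 95% interval with all arrays was -0.041 to 0.554 and took in 0, so no direction is given for Cdh10.

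Cdh7 and Cdh12 belong to the remaining type II group. Cdh7 had WT values of 5.94 to 6.09 with a median of 5.99, and cKO values of 5.93 to 6.07 with a median of 6.04. The ranges were nearly the same, and the difference was 0.0039 ± 0.0336 (SE; limma adjusted p = 0.984), with a 95% interval of -0.070 to 0.077. Its mean of 6.01 over all arrays was little above the median of all values. Cdh12, known as brain cadherin, ran from 6.43 to 7.19 in WT with a median of 7.09, and from 6.69 to 7.34 in cKO with a median of 6.90. The difference was -0.06 ± 0.14 (SE; limma adjusted p = 0.915). WT replicate 6 was the lowest WT array and cKO replicate 6 the highest cKO array, and leaving them out one at a time gave -0.17 ± 0.10 (limma adjusted p = 0.648) and -0.14 ± 0.12 (limma adjusted p = 0.748).

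Cdh13 encodes T-cadherin, which is held in the membrane by a lipid anchor, has no cytoplasmic tail to bind catenins and is a receptor for adiponectin. Its level ran from 9.92 to 10.27 in WT with a median of 10.03, and from 9.56 to 9.86 in cKO with a median of 9.64. Every cKO array lay below every WT array, the closest being cKO replicate 6 and WT replicate 1. The means were 10.04 ± 0.12 (SD, n = 6) and 9.67 ± 0.11 (SD, n = 6). Cdh13 fell by 0.37 on the log2 scale (SE 0.06), or 1.29-fold, with a 95% interval of -0.51 to -0.23 and a limma adjusted p of 0.0214. The call was close to the threshold. It was lost without WT replicate 4 (limma adjusted p = 0.0529) and without cKO replicate 1, 3 or 5 (0.0525, 0.0586 and 0.0642), although the change then stayed between -0.37 and -0.35. It was also lost with the cortical list level as a covariate (-0.40, limma adjusted p = 0.0574) and with that of the projection neuron list (-0.33, limma adjusted p = 0.275). The latter list holds genes which themselves differ between the genotypes.

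**Figure D2:**
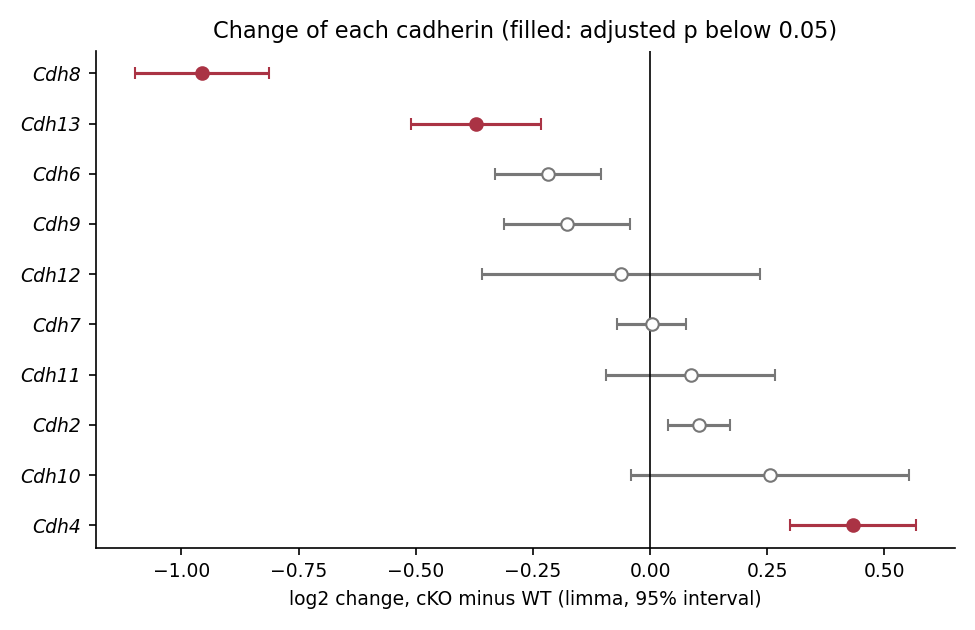
Log2 difference between cKO and WT for each cadherin, fitted with limma, with 95% intervals; filled points passed an adjusted p of 0.05. Cdh8 (-0.96) and Cdh13 (-0.37) lie below 0 and Cdh4 (0.43) above it, and the widest intervals are those of Cdh10 and Cdh12.

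Within the groups, the cadherins varied from array to array by different amounts. The residual SD was 0.253 for Cdh10 and 0.253 for Cdh12, 0.154 for Cdh11 and between 0.055 and 0.122 for the other 7, beside a median of 0.0469 over all probe sets. The 10 genes were compared pair by pair on their deviations from the group means over 12 arrays, a measure into which the genotype difference does not enter. Of 45 pairs, 32 had a positive Pearson correlation, and values ran from -0.74 to 0.75. By the two-sided exact permutation test within groups, 6 pairs had an unadjusted p under 0.05 and 0 passed after Benjamini-Hochberg adjustment (smallest adjusted p = 0.344), while by Spearman's rho 1 pair had an unadjusted p under 0.05 and 0 passed.

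Cdh10 and Cdh12 had the highest Pearson r, at 0.75 (exact permutation p = 0.0393, adjusted p = 0.344), with a Spearman rho of 0.52 (exact permutation p = 0.0850, adjusted p = 0.693). Without WT replicate 6 and cKO replicate 1, the arrays farthest from the median of Cdh10, r was 0.14, and without WT replicate 6 and cKO replicate 6, the arrays farthest in Cdh12, it was 0.40. Both exclusions leave out WT replicate 6. Cdh2 and Cdh11 had the lowest r, at -0.74 (exact permutation p = 0.0285, adjusted p = 0.344), with a rho of -0.63 (exact permutation p = 0.0865, adjusted p = 0.693) and an r of -0.36 without WT replicates 3 and 4, the WT arrays with low Y-linked levels. Within the groups r was -0.86 in WT and -0.23 in cKO. Cdh11 deviated by 0.31 and 0.15 in WT replicates 3 and 4. In cKO replicates 2, 3 and 5, where Y-linked levels were also low, it deviated by -0.16, -0.026 and 0.043. Cdh2 deviated by -0.105 and -0.064 in those WT arrays and by 0.013, -0.051 and 0.033 in those cKO arrays. The part of sex in the relation of Cdh2 and Cdh11 was not tested. Cdh7 and Cdh9 had an r of 0.60 (exact permutation p = 0.0451, adjusted p = 0.344) and a rho of 0.68 (exact permutation p = 0.0298, adjusted p = 0.693), and r was 0.42 without WT replicate 2 and cKO replicate 1, farthest in Cdh7, but 0.71 without WT replicate 3 and cKO replicate 6, farthest in Cdh9. Cdh8 was thus in none of the 6 pairs, and the remaining 3 were Cdh9 with Cdh13, Cdh2 with Cdh13 and Cdh11 with Cdh13.

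The same deviations were set against the array means of the projection neuron and cortical lists, 20 relations in all, a choice made after the values were seen. The highest value was that of Cdh8 with the projection neuron list, r = 0.81 over 12 arrays (exact permutation p = 0.00266, adjusted p = 0.0533) and rho = 0.73 (exact permutation p = 0.0147, adjusted p = 0.293), and it missed the threshold after adjustment. Its r was 0.89 within the WT arrays and 0.73 within the cKO arrays, and 0.56 without WT replicate 1 and cKO replicate 2. The projection neuron list holds genes which themselves differ between the genotypes. A fit with its level as a covariate therefore cannot separate cell content from expression per cell. In that fit Cdh8 was at -0.81 ± 0.05 (limma adjusted p = 0.000189). Its r with the cortical list was 0.013 (exact permutation p = 0.970, adjusted p = 0.970), with a rho of 0.014 (exact permutation p = 0.976, adjusted p = 0.976) and an r of 0.043 without cKO replicates 1 and 3. Of the 20 relations, that of Cdh8 and the projection neuron list was the 1 with an unadjusted Pearson p under 0.05, and 0 passed after adjustment. For Cdh10 and the cortical list r was 0.42 (exact permutation p = 0.128, adjusted p = 0.642) and rho 0.62 (exact permutation p = 0.0340, adjusted p = 0.340), with an r of 0.21 without cKO replicates 1 and 3.

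**Figure D3:**
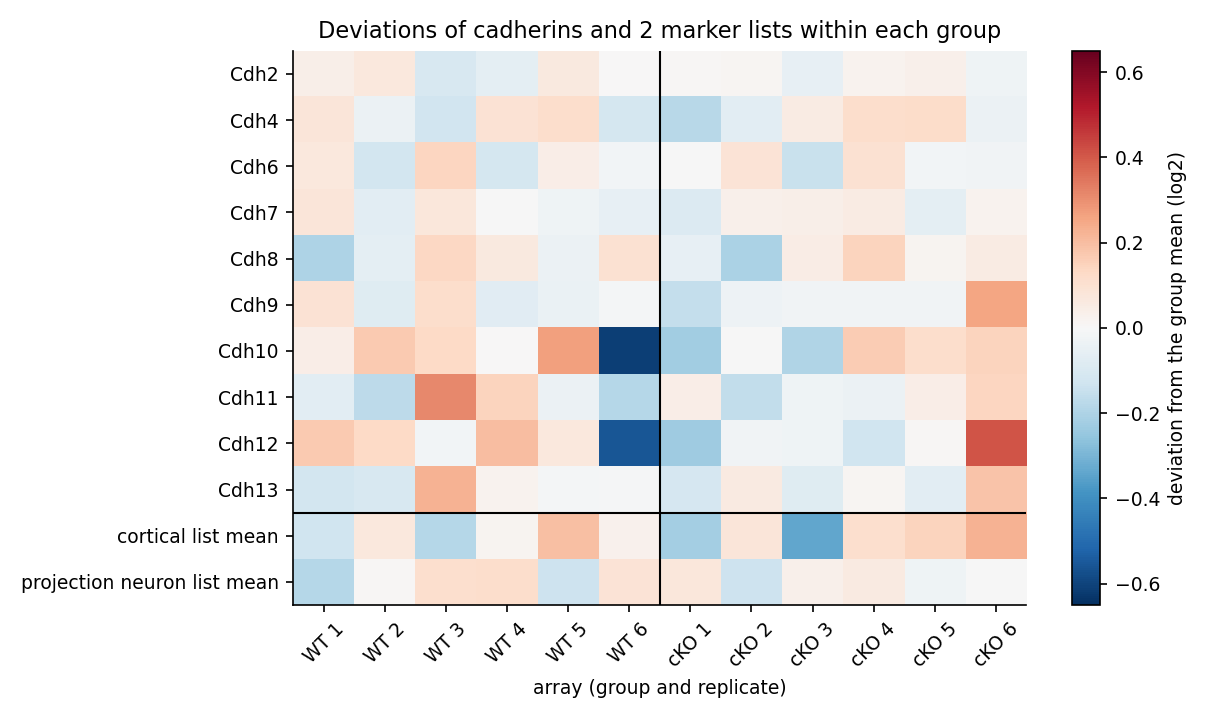
Deviation of each cadherin from the mean of its group (rows) in each array (columns), in log2 units, with the array means of the cortical and projection neuron lists below. The darkest blue cells are Cdh10 and Cdh12 in WT replicate 6 and the darkest red cell is Cdh12 in cKO replicate 6.

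For each called cadherin, the 5 named genes with the most similar values were found. Likeness was the root mean square difference over the 12 arrays after each gene's WT mean was subtracted. A gene with the same change and no scatter would score slightly below the cadherin's residual SD. That SD was 0.122 for Cdh8, 0.113 for Cdh4 and 0.118 for Cdh13. Values near or above it show a similar change but do not by themselves show a shared scatter. This holds for Foxp1, Tenm2, Sox8 and Cntn5 beside Cdh8, and for Wls, Negr1, Dcc and Stxbp5 beside Cdh4. All comparisons use the same arrays, and the 5 genes were picked from the whole table for this likeness, so their own changes are no further evidence. Nearest to Cdh8 were Neto1, an auxiliary subunit of kainate receptors (0.105 log2 units), Foxp1 (0.112), the teneurin Tenm2 (0.155), the transcription factor Sox8 (0.166) and the contactin Cntn5 (0.182). The change was -0.91 for Neto1, -1.05 for Tenm2, -0.89 for Sox8 and -0.88 for Cntn5. Nearest to Cdh4 were Sez6, a complement-domain protein of neurons (0.078), Wls, needed for Wnt secretion (0.1198), the IgLON adhesion molecule Negr1 (0.121), the netrin receptor Dcc (0.121) and Stxbp5, a syntaxin-binding protein (0.123). Their changes ran from 0.33 for Stxbp5 to 0.45 for Negr1, and Negr1 missed the threshold (limma adjusted p = 0.0577). Nearest to Cdh13 were the copine Cpne8 (0.075), Gas7 (0.080), the Ras activator Rasgrp1 (0.088), the predicted gene Gm15521 (0.093) and Ppp3ca, the catalytic subunit of calcineurin (0.094). Their changes ran from -0.37 for Cpne8 to -0.33 for Ppp3ca. None of the other cadherins was among these 15 genes.

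**Figure D4:**
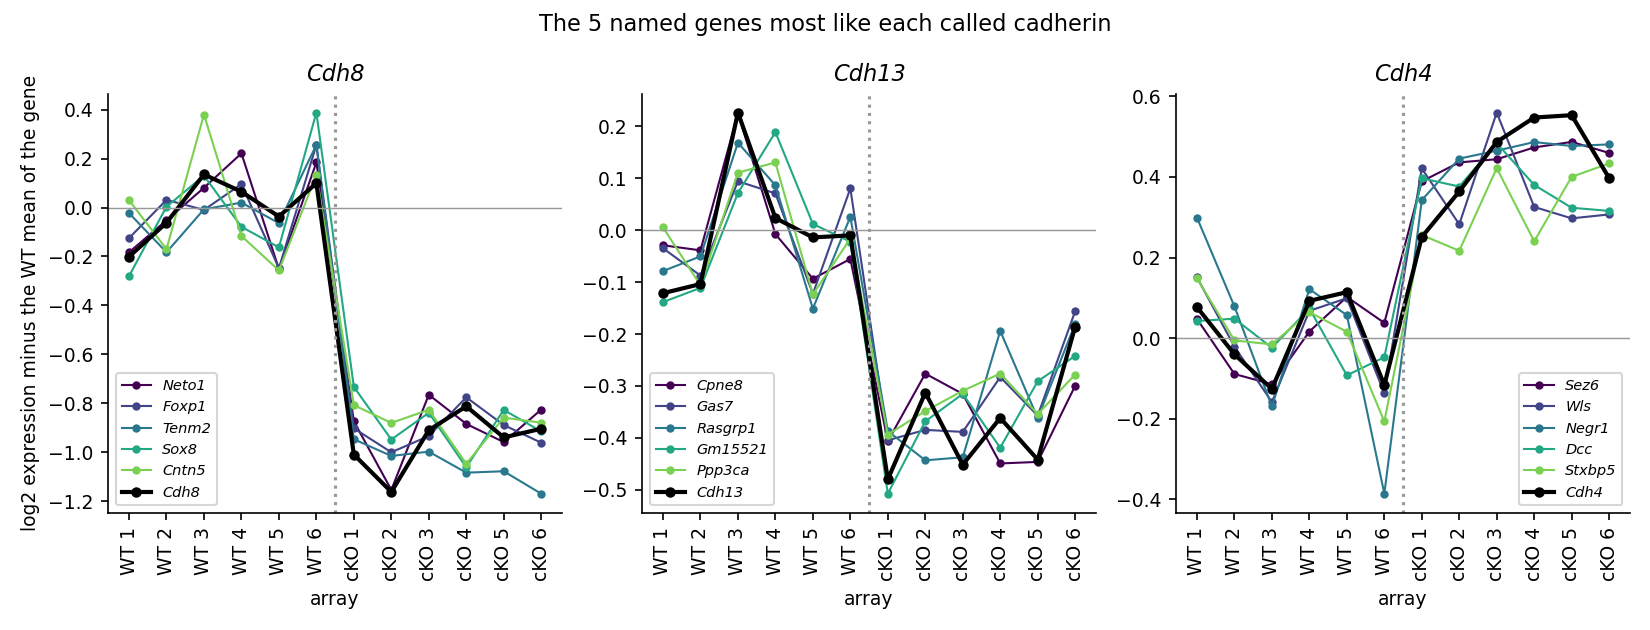
Log2 expression minus the WT mean of each gene in the 12 arrays for Cdh8, Cdh13 and Cdh4 (black) and the 5 named genes most like each (colours); the lines only join the points of a gene, as arrays of a group have no order. The cKO points of the other genes run from -1.17 to -0.73 beside Cdh8, from -0.51 to -0.16 beside Cdh13 and from 0.22 to 0.56 beside Cdh4.

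Other genes of the cadherin system were read from 3 lists. Of 13 other cadherin genes, all measured, 0 passed in limma, with 1 lower and 0 higher at an unadjusted p under 0.05. Over all probe sets 0.728% were called and 10.7% reached that p. Their changes ran from -0.034 to 0.056, around a median of -0.0053, and 7 of the 13 had a mean below the median level. The smallest p were those of Cdh26, at -0.034 ± 0.010 (SE; limma adjusted p = 0.212) and below the median level, and Cdh20, at 0.056 ± 0.032 (limma adjusted p = 0.577). Cdh5, the cadherin of endothelial cells, had means of 6.92 in WT and 6.91 in cKO.

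Of 15 catenins and cytoplasmic partners, all measured, 1 fell and 0 rose, beside 0.429% of all probe sets called lower and 0.299% called higher. The median change was -0.047, and 11 of the 15 were negative. At an unadjusted p under 0.05 in limma 3 were lower and 0 higher, beside 10.7% of all probe sets in either direction. The gene that fell was Vcl, vinculin, which ties the catenin complex to actin. Vcl ran from 7.27 to 7.53 in WT with a median of 7.37, and from 6.95 to 7.05 in cKO with a median of 6.98. The groups did not overlap, and Vcl fell by 0.39 (SE 0.04; limma adjusted p = 0.00113), or 1.31-fold. The catenins themselves did not pass. Beta-catenin, Ctnnb1, was at -0.047 ± 0.036 (limma adjusted p = 0.695), the neuronal alpha-catenin Ctnna2 at 0.0085 ± 0.0380 (limma adjusted p = 0.963), p120-catenin, Ctnnd1, at -0.0011 ± 0.0369 (limma adjusted p = 0.996) and the neural delta-catenin Ctnnd2 at -0.099 ± 0.029 (limma adjusted p = 0.199).

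Of 13 processing and surface partners 12 were measured, of which 1 fell and 0 rose, beside the same 0.429% and 0.299% of all probe sets. The median change was -0.019, and 7 of the 12 were negative. At an unadjusted p under 0.05 in limma 2 were lower and 1 higher, beside 10.7% of all probe sets in either direction. Nectin3, an immunoglobulin-like adhesion molecule that works beside cadherins at junctions, ran from 9.24 to 9.44 in WT with a median of 9.31. In cKO it ran from 8.71 to 9.01 with a median of 8.93, below every WT array. Nectin3 fell by 0.41 (SE 0.05; limma adjusted p = 0.00484), or 1.33-fold. With the projection neuron list level as a covariate it was at -0.38 ± 0.07 and missed the threshold (limma adjusted p = 0.101). As stated for Cdh4, that list holds genes which themselves differ between the genotypes. Nectin2 had a difference of -0.13 ± 0.04 (limma adjusted p = 0.140) and Nectin1 one of 0.05 ± 0.09 (limma adjusted p = 0.896). Adam10, a protease that cuts N-cadherin, was at 0.09 ± 0.05 (limma adjusted p = 0.575).

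**Figure D5:**
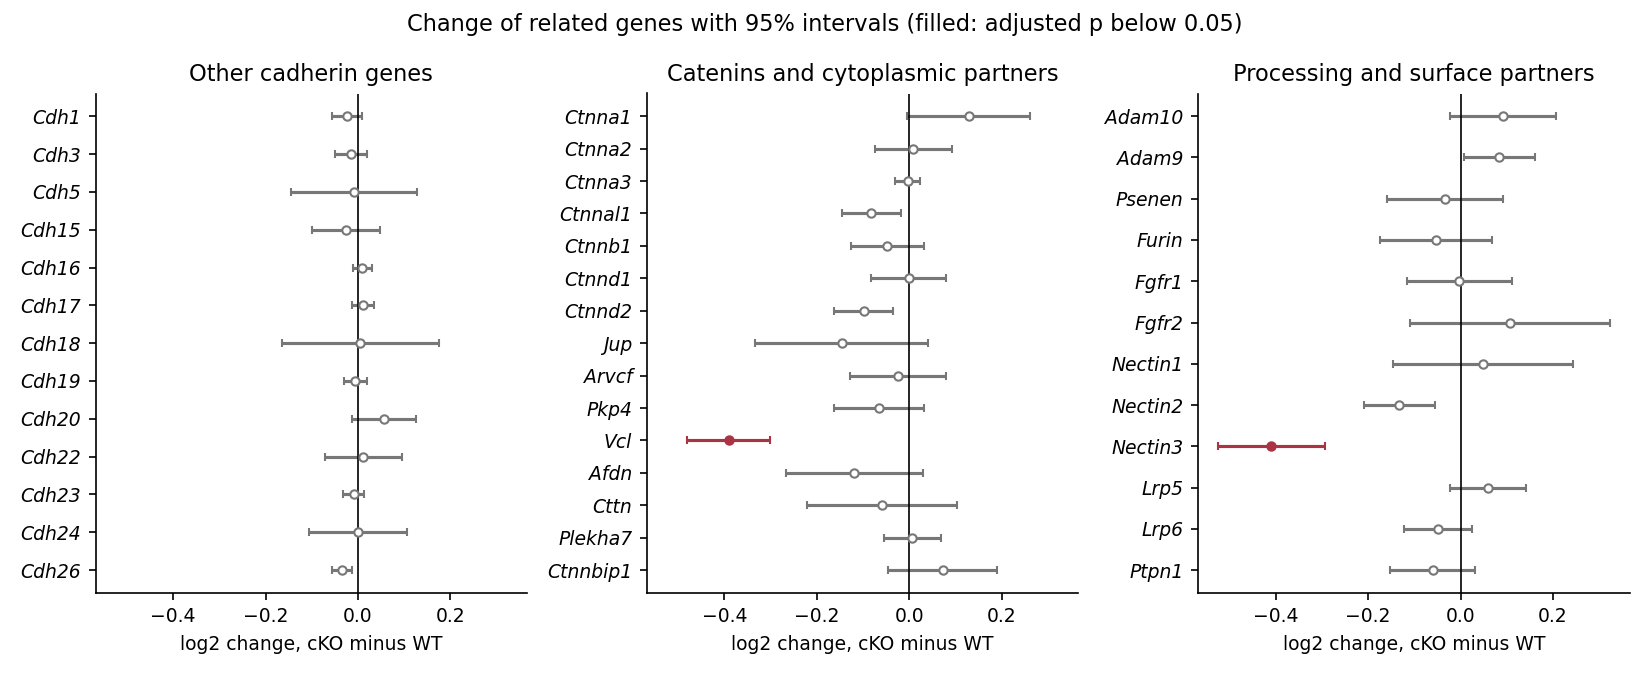
Log2 difference between cKO and WT, with 95% limma intervals, of 40 measured genes related to the cadherins in 3 lists; filled points passed an adjusted p of 0.05. Vcl (-0.39) and Nectin3 (-0.41) are the filled points, and the 13 other cadherin genes lie between -0.034 and 0.056.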

How the data were processed

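Per the submitters' processing notes, the authors made the deposited log2 values with RMA, which corrects background, puts arrays on a shared distribution and summarises probes; its version, the probe definition and the build are not given in the sources used here. In cKO replicate 1, 9.25% of the deposited values lay on the 1/1024 steps (tolerance 0.001 of a step) that all values of the other arrays lay on, and its sorted values differed from those of WT replicate 1 by at most 0.00187. A change common to all genes would not be seen. The number of arrays limits the precision. Symbols came from the platform annotation, updated through a RefSeq table of GRCm38.p6 (24674 of 25428 probe sets). The genotypes were tested over 12 arrays by lmFit with eBayes from limma 3.58.1 (R 4.3.3), two-sided and without covariates, with Benjamini-Hochberg adjustment over all probe sets. Correlations used exact permutation of arrays within groups (518400 orders). On simulated data with these group sizes and 25428 probe sets, changes of 0.25, 0.5 and 1 log2 unit were found in 78.8%, 98.6% and 99.8% of cases, with 5.7% false calls. These shares are not specific to the cadherins. The residual SD of the 10 cadherins was 0.055 to 0.253, above the median of 0.0469 over all probe sets. The shares therefore do not say how often a change in a given cadherin would be found. The members, gene lists and alternatives were chosen with earlier results of these data known. Named genes are all members, Foxp1, pathway list genes that passed or the 2 smallest p of a pathway list with none, markers of the cell type lists, and the 5 genes most like each called member; Cdh5, Cdh24, the catenins, Nectin1, Nectin2, Adam10 and the chromosomal neighbours were added after values were seen. The labels do not say whether arrays with the same replicate number belong together, and the main fit did not pair them. Promoter sequences are from RefSeq (GRCm38.p6).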

Additional observations from a re-analysis of the deposited data

Results flagged for a closer look

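In 22 sets of 6 arrays (10 cadherins and Foxp1 in each genotype), the highest or lowest array was compared with its nearest neighbour; chance alone marks about 1 set in 20, and 4 were marked. Cdh10 in WT replicate 6 was at 7.76, below the next array at 8.37. Cdh12 in the same array was at 6.43, below the next at 6.97. Cdh9 in cKO replicate 6 was at 6.20, above the next at 5.92, and Cdh12 in that array was at 7.34, above the next at 6.93. WT replicate 6 thus held both low values and cKO replicate 6 both high ones. The cortical list mean was 6.21 in WT replicate 6, within the WT range of 5.99 to 6.37, and 6.59 in cKO replicate 6, the highest of all arrays. Over 12 arrays, the Pearson correlation of the deviations with the cortical list mean was 0.20 for Cdh9 (rho 0.098), 0.42 for Cdh10 (rho 0.62) and 0.28 for Cdh12 (rho 0.36), and -0.074, 0.21 and 0.18 without cKO replicates 1 and 3. The exact permutation adjusted p over 20 relations was 0.692, 0.642 and 0.692 for r, and 0.865, 0.340 and 0.621 for rho.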

How the results depend on the processing

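Cdh8 was called in 23 of 23 refits (-0.996 to -0.812), Cdh4 in 22 and Cdh13 in 16, and their signs held in all. Cdh6 and Cdh9 were each called in 1 of the 23. Probe sets called were 185, and 278 with dim ones left out, 64 with the replicate number as a block, 98 and 31 with the cortical or projection neuron covariate, 61 at an adjusted p under 0.01, 30 with a 1.5-fold minimum and 106 to 227 with 1 array left out. Cadherins called lower were 2, and 3 with dim probe sets left out. They were 1 with the block, either covariate, the stricter p or the fold minimum, and 1 to 3 with 1 array left out. Cadherins called higher were 1, and 0 with the projection neuron covariate or the fold minimum, and 1 without any 1 array. With the replicate block, a pairing that the labels do not give, Cdh13 was at -0.37 (limma adjusted p = 0.115) and Nectin3 at -0.41 (limma adjusted p = 0.0808), while Cdh8 and Cdh4 passed (0.00338 and 0.0444). Deviations of same-numbered arrays correlated from -0.23 to 0.16, and 0 of 6 WT arrays matched their own number best. Of the 14 genes other than Foxp1 found most like a called cadherin, Neto1, Tenm2, Sox8, Cntn5, Sez6 and Dcc passed in 23 of 23 refits, Cpne8, Gas7 and Ppp3ca in 22, Gm15521 in 20, Wls in 19, Stxbp5 in 13, Rasgrp1 in 11 and Negr1 in 5. Vcl passed in 23 and Nectin3 in 21. Cdh7, at 0.0039, turned to -0.00026 with the Y-linked covariate and -0.013 with the projection neuron covariate, and ran from -0.0096 to 0.0213 with 1 array left out.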

Other observations

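On the RefSeq gene map, Cdh6, Cdh9, Cdh10 and Cdh12 are consecutive protein-coding genes among those with a probe set, as are Cdh8 and Cdh11. The values of adjacent members are those given above: Cdh8 fell by 0.96 while its neighbour Cdh11 was at 0.09 ± 0.08 (SE; limma adjusted p = 0.767). Got2, a mitochondrial transaminase gene on the other side of Cdh8, was at 0.0041 ± 0.0534 (limma adjusted p = 0.989). Beside Cdh4, Taf4 was at 0.0079 ± 0.0465 (limma adjusted p = 0.973), and beside Cdh13, Hsbp1 was at 0.043 ± 0.025 (limma adjusted p = 0.584) and Mphosph6 at -0.053 ± 0.038 (limma adjusted p = 0.671). These neighbours were looked up after the values of the cadherins were seen.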
